A study of Drosophila melanogaster with 9 samples.

Results

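The data describe 10 genes of the synaptonemal complex and of meiotic recombination in Drosophila melanogaster ovaries after germline knockdown of Piwi, HP1a or both. The genes were listed by name as members of this machinery, and no measured value enters the rule. The list was, however, chosen with earlier results of these data known. Of the 10, c(3)G, cona, c(2)M, ord, mei-W68, mei-P22, vilya, mei-218 and nod were found among the 13937 genes of the tables, and corolla was not analysed here. Their FlyBase identifiers in the tables are FBgn0000246 for c(3)G, FBgn0038612 for cona, FBgn0028525 for c(2)M, FBgn0003009 for ord, FBgn0002716 for mei-W68, FBgn0016036 for mei-P22, FBgn0024977 for vilya, FBgn0002709 for mei-218 and FBgn0002948 for nod. RNA was sequenced in 8 libraries, 2 biological replicates of each of 4 genotypes, from ovaries dissected from 0- to 1-day-old females grown at 18 °C, and genomic DNA of double knockdown flies aged 2 to 4 days was sequenced in 1 library.

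All 4 RNA genotypes carried 1 copy of the UAS-Dcr-2.D transgene with w[1118] and 1 copy of the nos-GAL4 driver GAL4-nos.NGT, which is active in germ cells, so that somatic cells of the ovary were not targeted. The double-GKD females (GKD, germline knockdown) carried UAS-Piwi-RNAi (VDRC line 101658) and UAS-HP1a-RNAi (VDRC line 31994) and neither balancer. The females labelled Piwi-GKD carried UAS-Piwi-RNAi and the balancer TM3. Females labelled HP1a-GKD carried UAS-HP1a-RNAi and the balancer Cy, and Ctrl females carried Cy and TM3 and no RNAi construct, so balancers and knockdowns cannot be told apart. None of the 4 genotypes expressed an unrelated RNAi construct.

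The targeted mRNAs go against the labels of the single knockdowns. In TPM, the length-corrected share of transcripts, piwi mRNA was at 158 and 147 in double-GKD, 259 and 229 in libraries labelled Piwi-GKD and 129 and 134 in libraries labelled HP1a-GKD, against 318 and 276 in Ctrl. HP1a mRNA was at 161 and 172 TPM in double-GKD, 166 and 189 TPM in libraries labelled Piwi-GKD and 342 and 358 TPM in libraries labelled HP1a-GKD, against 327 and 328 TPM in Ctrl. Libraries labelled HP1a-GKD thus had the lowest piwi mRNA and no loss of HP1a mRNA. The file names of the deposited tables also give the single knockdowns the opposite genotype. The paper reports reduced HP1a mRNA in its HP1a-GKD ovaries, which here holds for libraries labelled Piwi-GKD and not for those labelled HP1a-GKD. It also reports far more changed genes in HP1a-GKD than in Piwi-GKD, whereas here far more were called in libraries labelled Piwi-GKD. In both respects libraries labelled Piwi-GKD match the paper's HP1a-GKD, and those labelled HP1a-GKD match its Piwi-GKD. The labels are kept below, and any direction drawn for a single knockdown is that of the libraries so labelled.

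In Drosophila females, homologous chromosomes pair and are joined along their length by the synaptonemal complex in the germarium, the anterior chamber of each ovariole, soon after cyst formation. Programmed double-strand breaks are then made and repaired, some of them as crossovers, which hold homologues together until they separate in the first division. Chromosomes without a crossover are kept in place by a separate, achiasmate system. The complex has a central region, to which C(3)G and Cona belong, and lateral elements along each chromosome axis, which need C(2)M and the cohesion protein Ord.

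Library depth was similar, from 10773406 to 12802084 estimated counts, where a floor of 3 counts corresponds to 0.234 to 0.279 CPM (counts scaled to library size). All 9 genes passed the filter on low counts and were among the 9346 genes tested by edgeR's quasi-likelihood test with Benjamini-Hochberg adjustment, with calls made below an adjusted p of 0.05. Each p-value rests on 2 libraries per genotype. Relative to Ctrl, 28.1% of all tested genes were called higher and 28.1% lower in double-GKD, 29.3% higher and 29.1% lower in libraries labelled Piwi-GKD, and 0.877% higher and 0.492% lower in libraries labelled HP1a-GKD. These shares depend on the scaling between libraries: higher genes made up 50.0% of the calls in double-GKD and 50.1% in libraries labelled Piwi-GKD, but 65.1% and 66.7% when scaled to library totals only, and 71.2% and 75.6% on the TPM scale. With library totals the median log2 fold change of all genes shifted by 0.20 in double-GKD and 0.24 in libraries labelled Piwi-GKD, and on the TPM scale by 0.32 and 0.40, while edgeR's default scaling (TMM) places it near 0.

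The 9 genes did not move as a unit. In double-GKD ovaries, nod, c(2)M and c(3)G were downregulated 2.58-, 4.10- and 2.24-fold relative to Ctrl, ord was upregulated 9.33-fold, and cona, mei-W68, mei-P22, vilya and mei-218 did not pass the test. In libraries labelled Piwi-GKD, nod, c(2)M and c(3)G were also lower, and ord, cona and mei-P22 were higher. No gene of the 9 passed the test in libraries labelled HP1a-GKD, where 0.877% of all genes were called higher and 0.492% lower. There 3 of the 9 had an unadjusted edgeR p under 0.05, against 11.3% of all genes. The numbers called, 1 higher and 3 lower of 9 in double-GKD and 3 higher and 3 lower of 9 in libraries labelled Piwi-GKD, stand against a background of 28.1% to 29.3% of all genes called in each direction. The median log2 fold change of the 9 genes was 0.10 in double-GKD, 0.52 in libraries labelled Piwi-GKD and -0.24 in libraries labelled HP1a-GKD, against 0.00 over all tested genes in each.

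**Figure D1:**
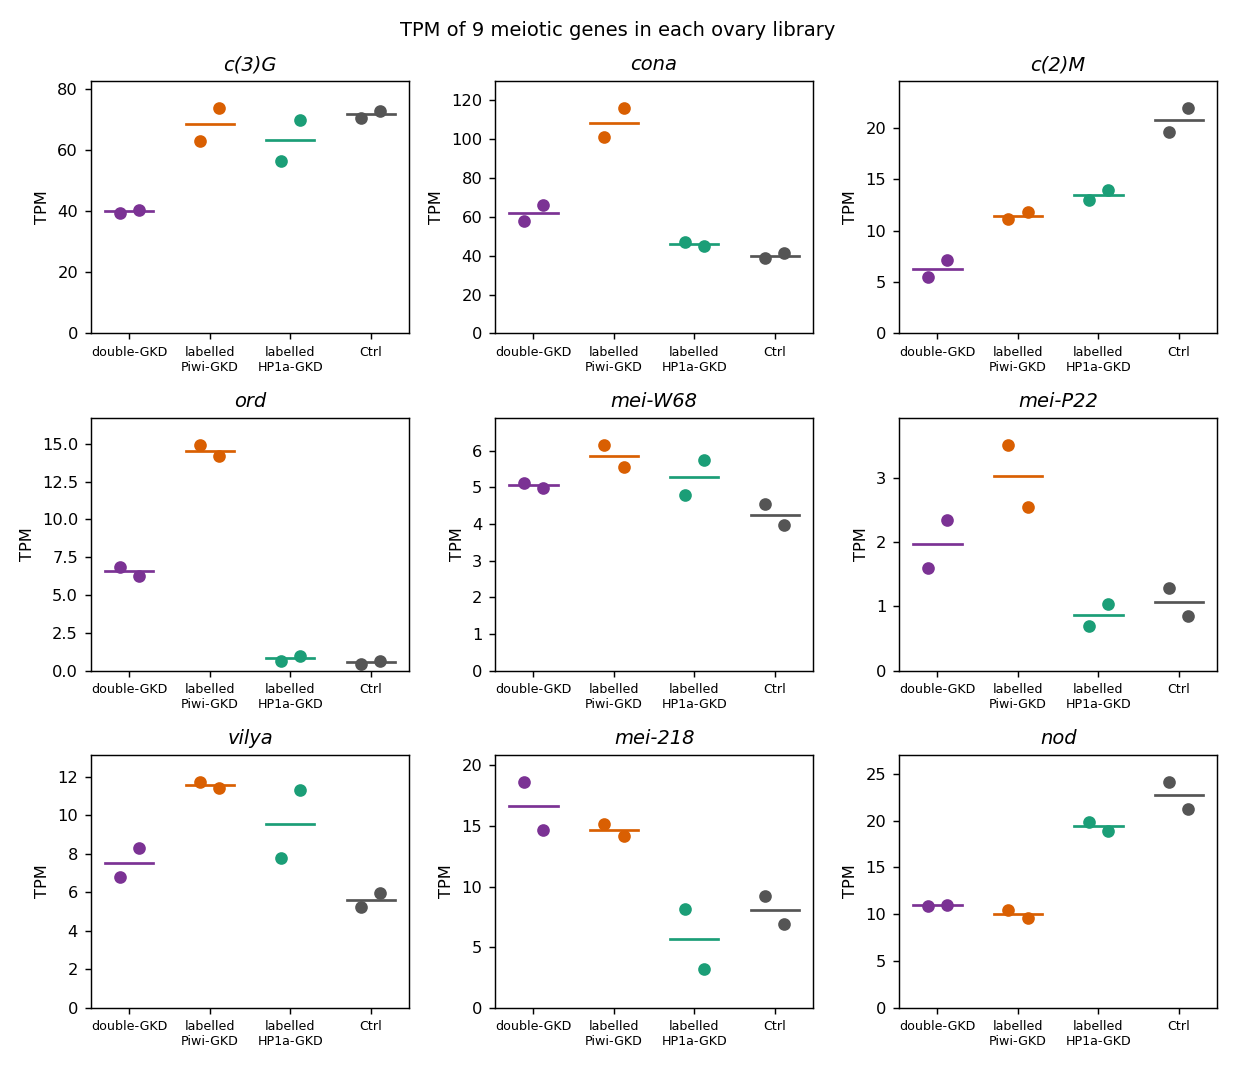
TPM (y axis, from 0) of each of the 9 genes in each of the 8 ovary libraries, with the genotypes along the x axis; points are libraries and lines are means of 2. The ord points lie between 6.26 and 14.9 TPM in double-GKD and libraries labelled Piwi-GKD and below 1 TPM in the other 4 libraries, while the nod and c(2)M points are lowest in the same 4 libraries in which ord is high.

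c(3)G encodes the transverse filament protein that spans the central region between the paired chromosomes. Its level was 39.6 and 40.5 TPM in double-GKD, 63.1 and 73.8 TPM in libraries labelled Piwi-GKD and 56.6 and 69.9 TPM in libraries labelled HP1a-GKD, against 70.4 and 73.0 TPM in Ctrl. Both double-GKD libraries lay below all others, those labelled Piwi-GKD overlapped Ctrl, and libraries labelled HP1a-GKD lay below it. The log2 fold change in double-GKD relative to Ctrl was -1.17 ± 0.17 (SE, edgeR adjusted p = 0.00099). In libraries labelled Piwi-GKD it was -0.46 ± 0.17 (edgeR adjusted p = 0.049), a call at the threshold. That call was lost without Ctrl replicate 1 (adjusted p = 0.053) or 2 (0.20), without labelled Piwi-GKD replicate 1 (0.21), without either library labelled HP1a-GKD (0.063) and without either double-GKD library (0.054), and with library totals (log2 -0.22) or on the TPM scale (-0.07). As these are bulk ovary samples, a changed share of cell types and a changed RNA level per cell cannot be told apart for c(3)G or for any gene that follows.

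cona encodes another protein of the central region, which in flies assembles together with C(3)G. Its level was 58.1 and 66.0 TPM in double-GKD, 101 and 116 TPM in libraries labelled Piwi-GKD and 47.2 and 44.9 TPM in libraries labelled HP1a-GKD, against 39.0 and 41.2 TPM in Ctrl. The 4 genotypes did not overlap on the TPM scale. cona rose in libraries labelled Piwi-GKD (log2 1.04 ± 0.18, edgeR adjusted p = 0.0021). In double-GKD its log2 fold change was 0.31 ± 0.18 (edgeR adjusted p = 0.19), and this became 0.51 with library totals (adjusted p = 0.041) and 0.63 on the TPM scale in limma (adjusted p = 0.0029).

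Because cona and c(3)G were measured in the same library, their ratio does not depend on the scaling between libraries. The TPM of cona divided by that of c(3)G was 1.47 and 1.63 in double-GKD and 1.60 and 1.58 in libraries labelled Piwi-GKD, against 0.834 and 0.642 in libraries labelled HP1a-GKD and 0.554 and 0.563 in Ctrl. The cona mRNA thus exceeded that of c(3)G in the 4 libraries of double-GKD and labelled Piwi-GKD and was below it in the other 4. The mean ratio was 1.55 in double-GKD and 1.59 in libraries labelled Piwi-GKD, against 0.559 in Ctrl, although c(3)G itself averaged 40.0 TPM in double-GKD and 68.5 TPM in libraries labelled Piwi-GKD. This is a difference in how the 2 mRNAs changed and does not say which one moved.

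**Figure D2:**
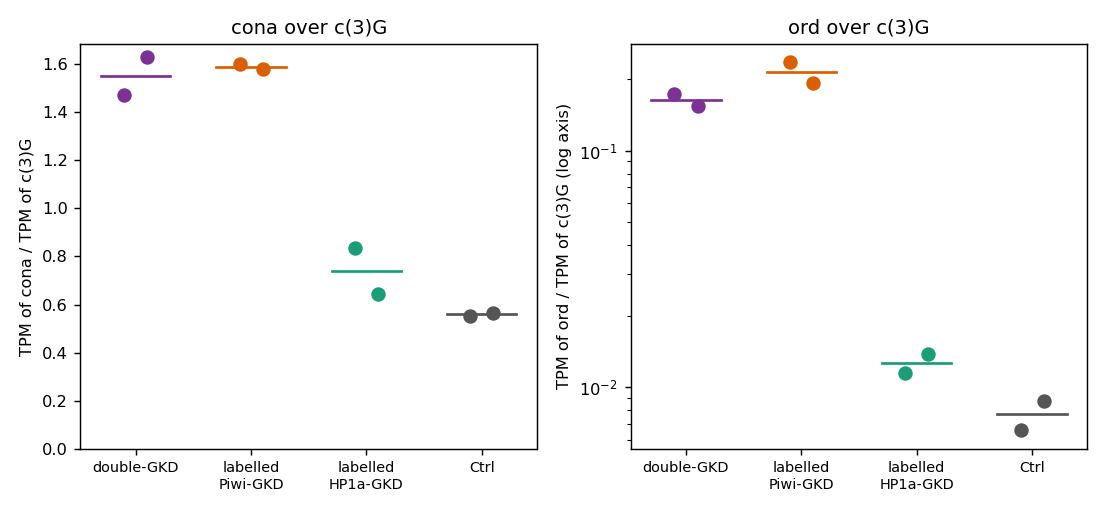
Ratio of the TPM of cona to that of c(3)G (left, linear axis from 0) and of ord to c(3)G (right, log axis) in each library, by genotype along the x axis; points are libraries and lines are means of 2. The cona ratio lies between 1.47 and 1.63 in double-GKD and libraries labelled Piwi-GKD and between 0.554 and 0.834 elsewhere, and the ord ratio lies between 0.155 and 0.236 in the first 4 libraries and between 0.00657 and 0.0138 in the other 4.

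c(2)M encodes a kleisin-like protein of the lateral element. Its level was 5.52 and 7.09 TPM in double-GKD, 11.1 and 11.8 TPM in libraries labelled Piwi-GKD and 13.0 and 13.9 TPM in libraries labelled HP1a-GKD, against 19.6 and 21.9 TPM in Ctrl. The 4 genotypes did not overlap, with every knockdown library below both Ctrl libraries. c(2)M fell in double-GKD (log2 -2.04 ± 0.21, edgeR adjusted p = 0.00019) and in libraries labelled Piwi-GKD (log2 -1.26 ± 0.21, edgeR adjusted p = 0.0016). In libraries labelled HP1a-GKD the log2 fold change was -0.69 ± 0.20 with an edgeR adjusted p of 0.23 and an unadjusted p of 0.011, and DESeq2 called it (adjusted p = 0.045).

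ord encodes a protein required for meiotic sister chromatid cohesion, and the change of ord exceeded in size those of the other 8 genes in both genotypes in which it was called. Its estimated counts were 166 and 198 in double-GKD, 380 and 397 in libraries labelled Piwi-GKD and 21 and 30 in libraries labelled HP1a-GKD, against 14 and 22 in Ctrl. In TPM, ord was at 6.85 and 6.26 in double-GKD, 14.9 and 14.2 in libraries labelled Piwi-GKD and 0.650 and 0.968 in libraries labelled HP1a-GKD, against 0.462 and 0.640 in Ctrl, where it was the lowest of the 9 genes. Libraries of double-GKD and those labelled Piwi-GKD lay far above the other 4. The log2 fold change was 3.22 ± 0.25 in double-GKD (edgeR adjusted p = 5.4e-05) and 4.30 ± 0.26 in libraries labelled Piwi-GKD (edgeR adjusted p = 1.9e-05, 19.7-fold), and 0.48 ± 0.27 in libraries labelled HP1a-GKD (edgeR adjusted p = 0.61). Leaving out any 1 library moved the change in double-GKD between 2.93 and 3.57 and that in libraries labelled Piwi-GKD between 4.01 and 4.65.

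Between c(2)M and ord, the 2 axis genes among the 9, the balance also differed. The TPM of ord divided by that of c(2)M was 1.24 and 0.883 in double-GKD and 1.34 and 1.20 in libraries labelled Piwi-GKD, against 0.0501 and 0.0699 in libraries labelled HP1a-GKD and 0.0235 and 0.0292 in Ctrl. ord thus exceeded c(2)M in 3 of the 4 libraries of double-GKD and labelled Piwi-GKD, and in double-GKD the 2 genes overlapped. Relative to c(3)G, ord averaged 0.164 in double-GKD and 0.215 in libraries labelled Piwi-GKD, against 0.00767 in Ctrl. No annotated gene overlaps ord in the Release 6 gene table.

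**Figure D3:**
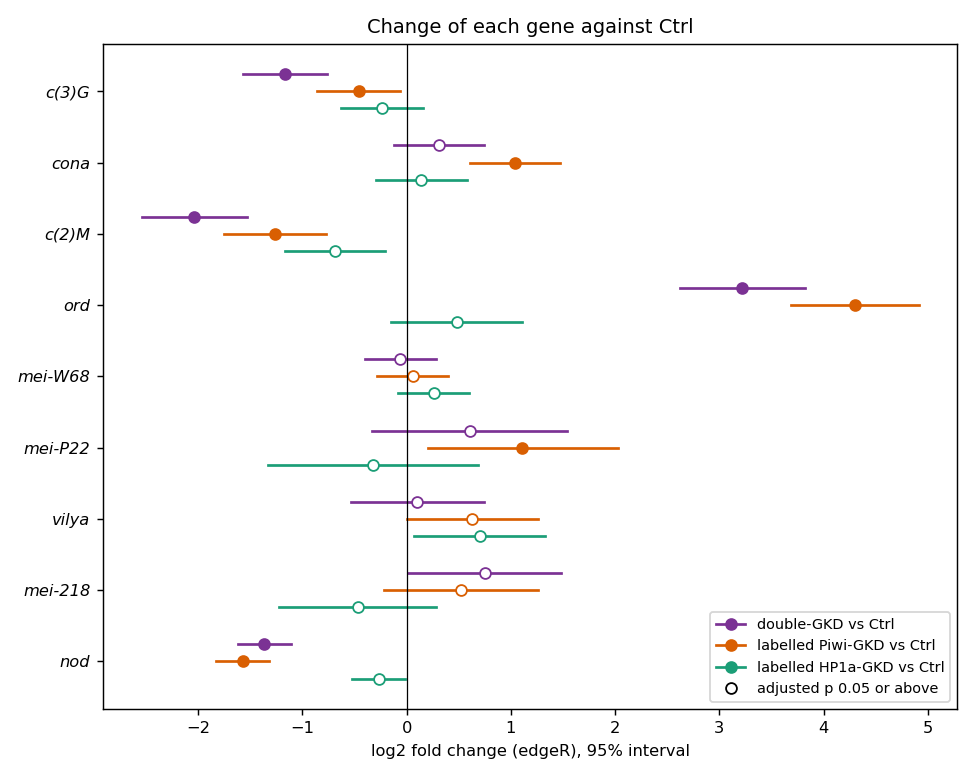
Log2 fold change against Ctrl (x axis) of each of the 9 genes (y axis) for double-GKD, libraries labelled Piwi-GKD and libraries labelled HP1a-GKD; lines are 95% intervals of the edgeR fit and filled points have an adjusted p under 0.05. ord lies furthest from 0, at 3.22 and 4.30, nod, c(2)M and c(3)G lie to the left of 0 in the first 2 contrasts, and all points for libraries labelled HP1a-GKD are open.

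Of the 3 genes of break formation, mei-W68 encodes the fly Spo11 that cuts DNA. Its level was 5.13 and 4.98 TPM in double-GKD, 6.15 and 5.55 TPM in libraries labelled Piwi-GKD and 4.80 and 5.74 TPM in libraries labelled HP1a-GKD, against 4.55 and 3.96 TPM in Ctrl. Knockdown libraries were thus slightly above Ctrl on the TPM scale, but after TMM scaling the log2 fold change in double-GKD was -0.06, with a 95% interval of -0.40 to 0.28 (edgeR adjusted p = 0.74), and its sign turns to 0.14 with library totals and 0.25 on the TPM scale. In libraries labelled Piwi-GKD the log2 fold change was 0.06, with an interval of -0.28 to 0.40. The gene lies wholly within the span of par-1, which had between 3738 and 6586 counts per library, and whether counting used the strand is not given in the sources used here, so its counts are uncertain.

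mei-P22 encodes a protein that acts with Mei-W68 in break formation. It was measured with 12 and 23 estimated counts in double-GKD, 27.8 and 22 in libraries labelled Piwi-GKD and 7 and 10 in libraries labelled HP1a-GKD, against 12 and 9 in Ctrl, at which counting error is large. In TPM, mei-P22 was at 1.60 and 2.35 in double-GKD, 3.51 and 2.54 in libraries labelled Piwi-GKD and 0.699 and 1.04 in libraries labelled HP1a-GKD, against 1.28 and 0.845 in Ctrl. Libraries labelled HP1a-GKD overlapped Ctrl, and the other knockdown libraries lay above both. Its log2 fold change in libraries labelled Piwi-GKD was 1.11 ± 0.39 (edgeR adjusted p = 0.042). The call was lost without labelled Piwi-GKD replicate 1 (adjusted p = 0.18) or 2 (0.091), without labelled HP1a-GKD replicate 1 (0.061) or 2 (0.063), without Ctrl replicate 1 (0.079) or 2 (0.18), without the low-count filter (0.057) and in DESeq2 (0.19). In double-GKD the log2 fold change was 0.61 ± 0.40 (edgeR adjusted p = 0.23).

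vilya encodes a RING finger protein that is found at recombination nodules and is needed for breaks to form. Its level was 6.78 and 8.27 TPM in double-GKD, 11.7 and 11.4 TPM in libraries labelled Piwi-GKD and 7.78 and 11.3 TPM in libraries labelled HP1a-GKD, against 5.25 and 5.97 TPM in Ctrl. All 6 knockdown libraries were above both Ctrl libraries on the TPM scale. The log2 fold change was 0.10 ± 0.27 in double-GKD (edgeR adjusted p = 0.77), 0.63 ± 0.27 in libraries labelled Piwi-GKD (edgeR adjusted p = 0.078) and 0.70 ± 0.27 in libraries labelled HP1a-GKD (edgeR adjusted p = 0.38). In libraries labelled Piwi-GKD, vilya was called with library totals (log2 0.87, adjusted p = 0.023) and on the TPM scale in limma (1.03, adjusted p = 0.0064).

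mei-218 encodes an MCM-like protein required for most crossovers, and shares 1 transcript with mei-217. The mei-217 gene covers 91.5% of the mei-218 span, so that reads can be assigned to either. The mei-218 counts were 905 and 943 in double-GKD, 778 and 827 in libraries labelled Piwi-GKD and 526 and 230 in libraries labelled HP1a-GKD, against 538 and 488 in Ctrl. The mei-217 counts were 0 and 78.2 in double-GKD, 230 and 93.6 in libraries labelled Piwi-GKD and 0 and 305 in libraries labelled HP1a-GKD, against 0 and 0 in Ctrl. In the replicate labelled HP1a-GKD with 305 mei-217 counts, mei-218 had 230 counts, against 526 in its partner, in which mei-217 had 0.

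Summed over both genes, the counts were 905 and 1021 in double-GKD, 1008 and 920 in libraries labelled Piwi-GKD and 526 and 534 in libraries labelled HP1a-GKD, against 538 and 488 in Ctrl. The double-GKD libraries and those labelled Piwi-GKD lay above the other 4, and the replicates of each genotype were close. For mei-218 alone the log2 fold change was 0.75 ± 0.31 in double-GKD (edgeR adjusted p = 0.077) and 0.52 ± 0.31 in libraries labelled Piwi-GKD (edgeR adjusted p = 0.19). Refitted with the sum, a choice made after the data were seen, it was 0.80 ± 0.08 in double-GKD (edgeR adjusted p = 0.00016), 0.78 ± 0.08 in libraries labelled Piwi-GKD (edgeR adjusted p = 0.00017) and 0.02 ± 0.08 in libraries labelled HP1a-GKD (edgeR adjusted p = 0.95). The mei-218 call was also gained without labelled HP1a-GKD replicate 1 or 2, at adjusted p of 0.0030 and 0.0029 in double-GKD and 0.011 for each in libraries labelled Piwi-GKD. With all libraries, mei-218 alone was called in double-GKD by DESeq2 (adjusted p = 0.010), with library totals (0.039) and in a fit of only the groups compared (0.0031), and that fit also called it in libraries labelled Piwi-GKD (0.016).

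nod encodes a kinesin-like protein that holds achiasmate chromosomes on the spindle. Its level was 10.9 and 11.0 TPM in double-GKD, 10.5 and 9.56 TPM in libraries labelled Piwi-GKD and 19.9 and 18.9 TPM in libraries labelled HP1a-GKD, against 24.1 and 21.3 TPM in Ctrl. The 4 lowest libraries were those of double-GKD and those labelled Piwi-GKD, with no overlap. nod fell in double-GKD (log2 -1.37 ± 0.11, edgeR adjusted p = 5.5e-05) and in libraries labelled Piwi-GKD (log2 -1.57 ± 0.11, edgeR adjusted p = 3e-05, 2.98-fold). In libraries labelled HP1a-GKD it was -0.27 ± 0.11 (edgeR adjusted p = 0.39). The pkm gene covers 44.6% of the nod span, and pkm itself was not called, with log2 fold changes of -0.23 in double-GKD and -0.60 in libraries labelled Piwi-GKD (edgeR adjusted p = 0.052).

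The order of the 9 genes by TPM differed between genotypes. In double-GKD and in libraries labelled Piwi-GKD, cona came first and c(3)G second, with means of 62.0 and 40.0 TPM in double-GKD and of 109 and 68.5 TPM in libraries labelled Piwi-GKD, whereas in Ctrl c(3)G came first with 71.7 TPM and cona second with 40.1 TPM. ord had rank 6 in double-GKD with a mean of 6.56 TPM and rank 4 in libraries labelled Piwi-GKD with 14.6 TPM, but rank 9 in libraries labelled HP1a-GKD and in Ctrl, with 0.809 and 0.551 TPM. Libraries of neighbours in this order overlapped for vilya, ord and c(2)M in double-GKD, and for mei-218 and ord and for vilya and c(2)M in libraries labelled Piwi-GKD. In libraries labelled HP1a-GKD they overlapped for vilya, mei-218 and mei-W68 and for mei-P22 and ord, so that the last rank of ord was not separate from that of mei-P22 there. In Ctrl they overlapped for nod and c(2)M alone. TPM values are per length, so these levels can be set beside each other between genes.

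Double-GKD was also set against each single knockdown. Against libraries labelled HP1a-GKD, for which 25.3% of all genes were called higher and 25.6% lower, ord (log2 2.74 ± 0.25, edgeR adjusted p = 0.00012) and mei-218 (1.21 ± 0.32, 0.016) were higher in double-GKD, and c(2)M (-1.35 ± 0.21, 0.0016), nod (-1.10 ± 0.11, 0.00019) and c(3)G (-0.93 ± 0.17, 0.0034) were lower. The mei-218 call was lost without double-GKD replicate 1, at an adjusted p of 0.069, and its value was 1.91 without labelled HP1a-GKD replicate 1, 0.73 without replicate 2 of that group and 0.78 ± 0.08 for the sum of mei-217 and mei-218 (edgeR adjusted p = 0.00023). Against libraries labelled Piwi-GKD, for which 0.417% were called higher and 0.621% lower, none of the 9 was called by edgeR, while 4 were lower at an unadjusted p under 0.05, as were 6.38% of all genes.

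Those 4 were ord, c(2)M, c(3)G and cona, all lower in double-GKD. The ord log2 difference was -1.08 ± 0.22 with an edgeR adjusted p of 0.093, c(3)G gave -0.71 ± 0.17 (0.15), cona -0.74 ± 0.18 (0.16) and c(2)M -0.78 ± 0.21 (0.19). DESeq2, which called 1.27% of all genes lower, called all 4, with an adjusted p of 0.0022 for ord, 0.0023 for c(3)G, 0.013 for cona and 0.035 for c(2)M. The log2 difference of nod was 0.21, with a 95% interval of -0.05 to 0.46.

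Libraries labelled Piwi-GKD were compared directly with libraries labelled HP1a-GKD, where 27.4% of all genes were called higher and 27.8% lower. ord (log2 3.82 ± 0.25, edgeR adjusted p = 3.1e-05), cona (0.90 ± 0.18, 0.0046), mei-P22 (1.44 ± 0.40, 0.018) and mei-218 (0.99 ± 0.32, 0.032) were higher in libraries labelled Piwi-GKD, and nod (-1.30 ± 0.11, 7.9e-05) was lower. The mei-P22 call was lost without labelled HP1a-GKD replicate 1 or 2 (adjusted p = 0.12 and 0.051), without labelled Piwi-GKD replicate 1 or 2 (0.099 and 0.050) and in DESeq2 (0.091). The mei-218 call was lost without labelled Piwi-GKD replicate 1 or 2 (adjusted p = 0.069 and 0.11) and in a fit of only the groups compared (0.051). Its value was 1.69 without labelled HP1a-GKD replicate 1, 0.51 without replicate 2 of that group and 0.76 ± 0.08 for the sum with mei-217 (edgeR adjusted p = 0.00023). c(2)M gave -0.57 with an edgeR adjusted p of 0.051, and was called lower in DESeq2 (0.024), in a fit of only the groups compared (0.022) and without either double-GKD library (0.027).

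The interaction term asked whether the change in double-GKD differed from the sum of both single knockdowns on the log2 scale. Over all genes 0.0535% were called above and 0.214% below the sum, and none of the 9 passed the edgeR test, while 4 of the 9 and 8.12% of all genes had an unadjusted p under 0.05. The log2 interaction was -1.56 ± 0.35 for ord (edgeR adjusted p = 0.21), -1.22 ± 0.38 for vilya (0.44), -0.88 ± 0.26 for cona (0.41) and 0.48 ± 0.15 for nod (0.47). This term does not depend on which single knockdown carries which label.

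Marker lists of the cell types in the dissected tissue moved with the same libraries. The summed TPM of 6 germline genes was 411 to 418 in double-GKD, 399 to 437 in libraries labelled Piwi-GKD and 1370 to 1380 in libraries labelled HP1a-GKD, against 1570 to 1610 in Ctrl, and 5 of the 6 were called lower in the first 2 genotypes, the exception being grk. Of the Ctrl sums, osk alone made up 1025 and 1060 TPM. It was at 174 and 175 TPM in double-GKD and 163 and 154 TPM in libraries labelled Piwi-GKD. The germline gene nos gave log2 -1.80 in double-GKD and -0.95 in libraries labelled Piwi-GKD. Of 4 genes of early germ cells in the germarium, 3 were called lower in double-GKD and 2 in libraries labelled Piwi-GKD, led by the differentiation factor bam (log2 -3.66 and -2.85), and bgcn was called higher in both. All 7 muscle genes, with a summed TPM of 8140 to 9960 in double-GKD and 8790 to 11000 in libraries labelled Piwi-GKD against 2500 to 2640 in Ctrl, were called higher in both (Mhc, log2 1.62 and 1.64), as were all 3 fat body and all 4 hemocyte genes and 3 of 6 follicle genes. Over all genes, 28.1% were called in each direction in double-GKD, and 29.3% higher and 29.1% lower in libraries labelled Piwi-GKD. No marker was called in libraries labelled HP1a-GKD, where 0.877% of all genes were called higher and 0.492% lower. The part of these shifts in the values of the 9 meiotic genes was not tested, and no marker of any list was at or below 3 counts in every library of a genotype.

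**Figure D4:**
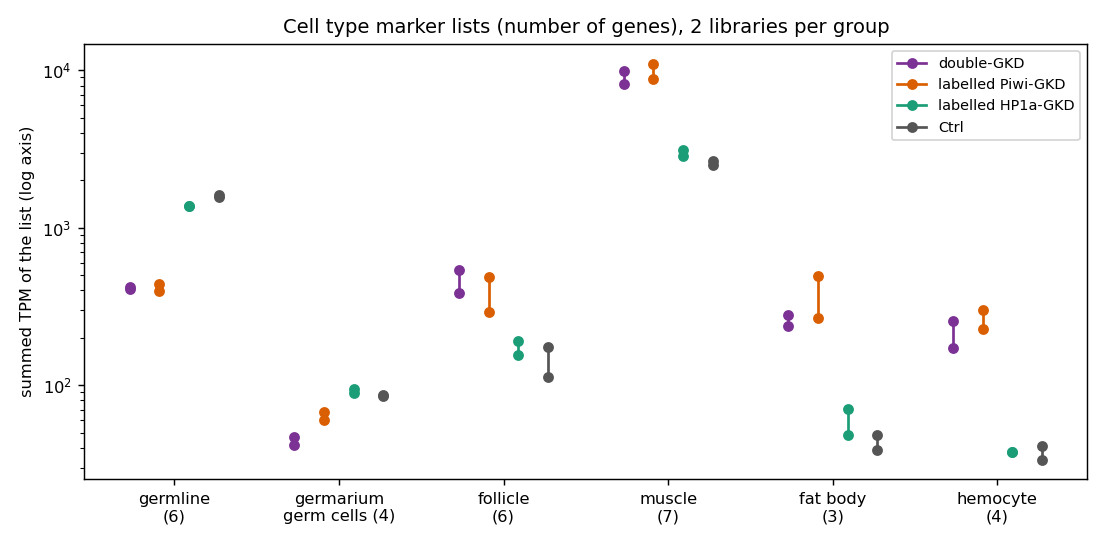
Summed TPM (log axis) of 6 marker lists, with the number of genes in parentheses, for double-GKD, libraries labelled Piwi-GKD, libraries labelled HP1a-GKD and Ctrl; each line joins the 2 libraries of a genotype. Germline sums lie between 399 and 437 in the first 2 genotypes and between 1370 and 1610 in the others, and muscle, fat body and hemocyte sums are higher in the first 2.

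Expression close to that of c(3)G, c(2)M, mei-W68 and nod over the 8 libraries was sought among 7136 genes. These passed the filter and had an SD of log2 CPM over 0.2. Closeness was the root mean square difference of log2 levels after centring each gene. cona, ord, mei-P22, vilya and mei-218 were compared only among the 9 genes. nod was closest to nero (0.067), CG6126 (0.077) and Rrp42 (0.079). c(3)G was closest to Haspin (0.126), CG32017 (0.127) and CG11755 (0.136), mei-W68 to Taf8 (0.105), Asph (0.116) and Taf2 (0.127), and c(2)M to nanos (0.151), CG32037 (0.166) and AGO3 (0.203). nanos is one of the germline markers above. mei-W68 itself varied little, from 9.15 to 12.8 CPM after TMM scaling, with an SD of log2 CPM below 0.2. Genes as flat as mei-W68 were thus left out of its search, and its nearest genes do not show shared expression. Among the 9 genes, the nearest pair was mei-W68 and vilya (0.267), followed by c(3)G and c(2)M (0.362), and the nearest to ord was mei-P22 at 1.355. These values describe 8 libraries that share the same 4 genotypes.

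A further 40 genes of meiosis and its repair pathways showed a similar mixture. All 40 were tested, and 2 were called higher and 15 lower in double-GKD, 7 higher and 13 lower in libraries labelled Piwi-GKD and none in libraries labelled HP1a-GKD, where 5 of the 40 had an unadjusted p under 0.05, against 11.3% of all genes. The background of adjusted calls was 28.1% in each direction in double-GKD, and 29.3% higher and 29.1% lower in libraries labelled Piwi-GKD. Their median log2 fold change was -0.18, -0.06 and 0.02 in these contrasts, and was the same with mei-217 set to the bound given by its 0 counts in Ctrl.

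The change of mtrm, which encodes an inhibitor of Polo kinase needed for achiasmate segregation, was the largest among these 40 genes apart from mei-217. Its level was 6.03 and 8.86 TPM in double-GKD, 8.52 and 8.92 TPM in libraries labelled Piwi-GKD and 112 and 108 TPM in libraries labelled HP1a-GKD, against 141 and 146 TPM in Ctrl. Like nod, it was low in the first 4 libraries, and it fell by 4.57 on the log2 scale in double-GKD (SE 0.21, edgeR adjusted p = 1.4e-05) and by 4.44 in libraries labelled Piwi-GKD (SE 0.21, edgeR adjusted p = 1.3e-05). After TMM scaling polo itself was lower by log2 -0.64 and -0.63, Klp3A by -0.60 and -0.62 and sub by -0.50 and -0.40, all called. On the TPM scale libraries labelled Piwi-GKD overlapped Ctrl for sub (19.2 and 18.7, against 19.1 and 18.7) and Klp3A (27.4 and 23.0, against 31.5 and 27.1). They lay below it for polo, and double-GKD lay below Ctrl for polo, Klp3A and sub.

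Among cohesion genes, none of 7 was called in double-GKD, where 28.1% of all genes were called in each direction. In libraries labelled Piwi-GKD 3 were called higher, where 29.3% of all genes were. SA-2, a paralogue of the cohesin subunit SA, was at 0.703 and 0.487 TPM in double-GKD and 2.20 and 1.80 TPM in libraries labelled Piwi-GKD, against 0.348 and 0.212 TPM in Ctrl. sunn, which like ord is required for meiotic cohesion, was at 3.65 and 3.74 TPM in double-GKD and 8.93 and 7.86 TPM in libraries labelled Piwi-GKD, against 2.94 and 2.79 TPM in Ctrl. For both genes libraries labelled Piwi-GKD lay above the others without overlap. Their log2 fold changes there were 2.43 ± 0.29 for SA-2 (edgeR adjusted p = 0.00032) and 1.15 ± 0.16 for sunn (edgeR adjusted p = 0.00070), and both were lower in double-GKD than in those libraries (log2 -1.67 and -1.10, edgeR adjusted p = 0.043 and 0.032). After TMM scaling SMC1 and SMC3, the core cohesin subunits, were within 0.17 of Ctrl on the log2 scale in every genotype and were not called. In TPM they lay above Ctrl in both genotypes. SMC1 was at 55.1 and 53.2 in double-GKD and 63.6 and 61.1 in libraries labelled Piwi-GKD, against 43.7 and 40.6 in Ctrl. SMC3 was at 34.7 and 29.0 in double-GKD and 39.4 and 33.5 in libraries labelled Piwi-GKD, against 28.4 and 24.9 in Ctrl.

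Of 11 strand exchange and repair genes, mre11 and rad50 were called higher in double-GKD. Among those called lower there were nbs, Brca2, mus304 and mei-41, while the gene with the largest fall is not reported here. On the TPM scale double-GKD overlapped Ctrl for mus304 (6.81 and 6.05, against 7.91 and 6.39) and mei-41 (11.0 and 9.58, against 11.9 and 10.6). It lay below Ctrl for nbs and Brca2. Of 9 crossover genes, mus81, mei-9 and Blm were lower after TMM scaling in double-GKD and in libraries labelled Piwi-GKD. The nuclease gene mus81 led them (log2 -1.22 ± 0.12 in libraries labelled Piwi-GKD, edgeR adjusted p = 0.00015). On the TPM scale those libraries overlapped Ctrl for mei-9 (17.7 and 14.3, against 17.8 and 15.5) and Blm (8.67 and 7.56, against 8.72 and 7.87), but not for mus81. The double-GKD libraries lay below Ctrl in TPM for mus81, mei-9 and Blm. hdm, which encodes a partner of Mei-9, was higher in libraries labelled Piwi-GKD alone of the 3 contrasts with Ctrl (2.82-fold, SE 0.37 on the log2 scale, edgeR adjusted p = 0.011), and its log2 difference between double-GKD and those libraries was -1.39 (edgeR adjusted p = 0.18). lok, the fly Chk2 checkpoint kinase gene, fell by 1.55 in double-GKD and by 1.52 in libraries labelled Piwi-GKD. narya, a RING finger gene related to vilya, fell by 1.37 in double-GKD (edgeR adjusted p = 0.011) and gave -0.56 in libraries labelled Piwi-GKD (edgeR adjusted p = 0.18). Its estimated counts in the double-GKD replicates were low and differed, at 20 and 51, against 89 and 78 in Ctrl.

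**Figure D5:**
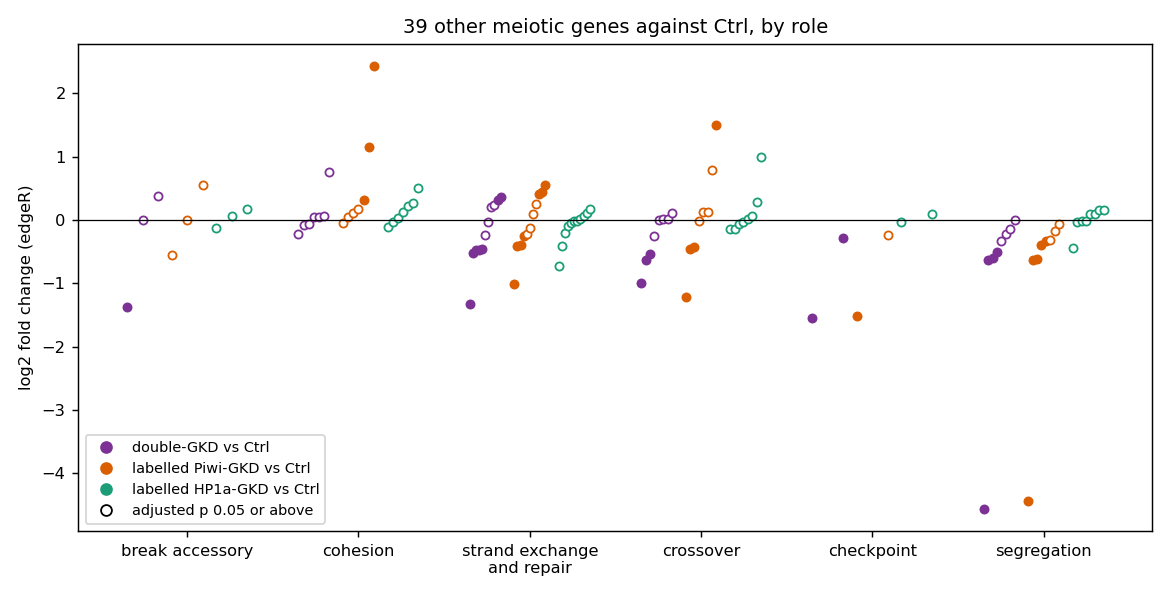
Log2 fold change against Ctrl (y axis) of 39 further meiotic genes by role (x axis), mei-217 left out, for double-GKD, libraries labelled Piwi-GKD and libraries labelled HP1a-GKD; filled points have an edgeR adjusted p under 0.05. mtrm lies lowest at -4.57 and -4.44, SA-2 highest at 2.43, and all points for libraries labelled HP1a-GKD are open.

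Transposon insertions in the double-GKD genome were located relative to these genes, with no background over all genes. Of 4084 sites called in the DNA library, 1 lay within 3 kb of any of the 7 genes with release 5 coordinates (c(3)G, ord, mei-W68, mei-P22, vilya, mei-218 and nod), and cona and c(2)M were not analysed here for insertions. It was a BS element at position 17037927 of chromosome X, 898 bases from mei-218, supported from both sides at a frequency of 0.783. A pogo element at position 11465709 of the same chromosome, supported on 1 side at a frequency of 0.627, lay 9142 bases from nod. ord had no site within 10 kb.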

How the data were processed

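RNA was measured in 8 ovary libraries (4 genotypes, 2 biological replicates each) and DNA in 1 library. Per the labels and the study's methods, rRNA was depleted and single-end reads were aligned by STAR to release 5 of the genome (dm3, BDGP5) and quantified per gene by Salmon. HISAT2 and bedtools are also named in the submitters' processing notes. Tool versions and strandedness of counting are not given in the sources used here. The deposited estimated counts are not normalized, and the deposited TPM values were scaled by the authors to 1000000 per library. For DNA, the authors called transposon insertions with PoPoolationTE2, and the deposited frequency is the fraction of read pairs at a site that support the insertion.

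Gene names were matched by FlyBase identifier, vilya through its older name. The main test was edgeR's quasi-likelihood fit (glmQLFit, glmQLFTest, version 4.0.16, under R 4.3.3, with limma 3.58.1) on rounded counts, 1 fit of 8 libraries and 4 groups, with TMM scaling, filterByExpr and Benjamini-Hochberg adjustment over 9346 genes, after tests on simulated data. Alternatives were other scaling, no filter, DESeq2 1.42.0, limma on log2(TPM + 0.1), only the groups compared, a replicate block, exchanged labels of the single knockdowns and leaving out each library. Counts rebuilt from TPM, and mei-217 and mei-218 summed, were added after the data were seen. Pairs of libraries with the same replicate number were not treated as matched. The rule for named genes took all members found, the 2 called genes with the largest change per role, direction and contrast with Ctrl among the other meiotic genes, both targets, nos, bam and Mhc (vas was not matched), and the 3 genes nearest in expression to c(3)G, c(2)M, mei-W68 and nod. A strand exchange gene that this rule takes is not reported here. Any other gene named was chosen after its values were seen. Members and lists were chosen with earlier results of these data known. A promoter motif search and sequences were not used here. Gene overlaps came from a RefSeq Release 6 table, used for names and neighbours only, and gene ends for insertion distances from the study's release 5 annotation. Floors cover counting error only.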

Additional observations from a re-analysis of the deposited data

How the results depend on the processing

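Piwi-GKD and HP1a-GKD here name the groups as labelled. The double-GKD calls against Ctrl of c(3)G, c(2)M, nod and ord passed the threshold in the same direction under each alternative run and without each library. With Piwi-GKD and HP1a-GKD labels swapped, following the names of the tables, there were 0 of the 9 genes called for Piwi-GKD against Ctrl, 6 for HP1a-GKD against Ctrl, 0 for double-GKD against HP1a-GKD and 5 for double-GKD against Piwi-GKD. DESeq2 called 1 gene in HP1a-GKD against Ctrl and 4 in double-GKD against Piwi-GKD, where limma on log2(TPM + 0.1) called 1. Leaving out 1 library gave 3 to 6 genes for Piwi-GKD against HP1a-GKD. The cause of these shifts was not tested, apart from the exchange, which only renames the groups.

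Signs turned under exchanged labels as follows, on the log2 scale. Piwi-GKD against HP1a-GKD gave 0.57 for c(2)M, 0.22 for c(3)G, -0.90 for cona, -0.99 for mei-218, -1.44 for mei-P22, 0.20 for mei-W68, 1.30 for nod, -3.82 for ord and 0.06 for vilya. Double-GKD against HP1a-GKD gave -0.74 for cona, -0.51 for mei-P22, 0.21 for nod and -1.08 for ord, and double-GKD against Piwi-GKD gave 0.16 for cona, 0.93 for mei-P22, -1.10 for nod and 2.74 for ord. Against Ctrl, mei-218 gave -0.47 in Piwi-GKD and 0.52 in HP1a-GKD, and mei-P22 gave -0.32 and 1.11. Library totals turned mei-W68 in double-GKD against Ctrl to 0.14, and c(3)G, mei-W68 and vilya in Piwi-GKD against HP1a-GKD to 0.01, 0.03 and 0.16, and limma on TPM turned the same values to 0.25, 0.12, 0.15 and 0.30. Summing mei-217 and mei-218 turned mei-218 to 0.02 in HP1a-GKD against Ctrl and to -0.01 in the interaction.

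Leaving out 1 library turned the sign of values that were not called: c(2)M (-0.39 to 0.15) and mei-P22 (-0.60 to 0.12) in the interaction, vilya in double-GKD against Ctrl (-0.15 to 0.31) and in Piwi-GKD against HP1a-GKD (-0.29 to 0.19), mei-218 in HP1a-GKD against Ctrl (-1.17 to 0.01) and cona in double-GKD against HP1a-GKD (-0.04 to 0.32).

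Same-numbered replicates correlated in their deviations from the group means at -0.043 to 0.233, and the labels give the numbers no further meaning. With the replicate number as a block, 2 genes, c(3)G and ord, were called lower in double-GKD than in Piwi-GKD (log2 -0.70 and -1.07), vilya was called in Piwi-GKD against Ctrl (0.64) and in double-GKD against HP1a-GKD (-0.59), c(3)G and c(2)M were called in Piwi-GKD against HP1a-GKD (-0.23 and -0.58), and the calls over all genes went to 193 in HP1a-GKD against Ctrl and to 163 in double-GKD against Piwi-GKD.

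Over all genes, 128 were called in HP1a-GKD against Ctrl, 97 in double-GKD against Piwi-GKD and 25 in the interaction. DESeq2 called 233, 221 and 84 in the same contrasts, a fit of only the groups compared called 41 in double-GKD against Piwi-GKD, and leaving out 1 library gave 23 to 117, 14 to 70 and 10 to 33. Exchanged labels gave 128 in Piwi-GKD and 5462 in HP1a-GKD against Ctrl, and 97 and 4757 in double-GKD against HP1a-GKD and Piwi-GKD. The planned search for promoter motifs was not run.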

Other observations

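mus312, which encodes a partner of the Mei-9 nuclease, was listed at 568 and 0 estimated counts in double-GKD and 695 and 586 in libraries labelled Piwi-GKD and 762 and 601 in libraries labelled HP1a-GKD, against 675 and 0 in Ctrl. It was not called in any contrast, and its fold changes enter the counts, medians and plot of the further meiotic genes but are not described.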
